A study of Mus musculus with 96 samples.

Results

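The liver answers a shortage of glucose by burning fatty acids, and the nuclear receptor PPAR-alpha is known to direct that answer. Here 8 genes of the PPAR-alpha program of fasting and ketogenesis were followed through sleep deprivation in the mouse. They are Ppara, which encodes the receptor itself, and 7 genes known as its targets, Cpt1a, Angptl4, Pdk4, Cyp4a10, Cyp4a14, Ehhadh and Acot1. The genes were chosen by symbol in the GENCODE M21 annotation, and 8 of the 54833 features of the deposited count table carried these names. RNA had been sequenced in 96 libraries from liver, kidney, forebrain and cerebellum of male wild-type C57BL/6 mice aged 6 to 8 weeks. Control mice (CON) were left undisturbed, while sleep-deprived mice (SD) were kept walking for 10 h in a slow drum during the rest phase, with food and water at hand. Tissue was taken over the following day at 6 circadian times (CT, in hours), CT4 being the earliest and CT24 the latest in steps of 4 h, and each tissue, condition and time has 2 libraries. All groups share the wild-type genotype, the sex and the strain, and forced locomotion is part of the SD treatment, so lost sleep and forced walking cannot be told apart.

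PPAR-alpha binds DNA as a partner of the retinoid X receptor and is activated by fatty acids that reach the hepatocyte from adipose tissue. Its targets import fatty acids into mitochondria, shorten them in peroxisomes, oxidize their far end in the endoplasmic reticulum and turn the acetyl units into ketone bodies. In liver the receptor also has a daily rhythm of its own, which is tied to the circadian clock. Kidney cortex, too, runs on fatty acids, whereas most neurons use little of them.

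The 8 genes lie on 7 chromosomes of the GRCm38 build and all are protein coding. Ppara lies on chromosome 15 (85734983 to 85802819, plus strand), Cpt1a on chromosome 19 (3322334 to 3385733, plus strand), Angptl4 on chromosome 17 (33773750 to 33781830, minus strand) and Pdk4 on chromosome 6 (5483351 to 5496309, minus strand). Cyp4a10 (115518264 to 115533649, plus strand) and Cyp4a14 (115486200 to 115496142, minus strand) are neighbours on chromosome 4. Ehhadh lies on chromosome 16 (21761287 to 21787807, minus strand) and Acot1 on chromosome 12 (84009490 to 84018371, plus strand). Of the 8, Ehhadh alone overlaps another annotated gene, Gm24898, on the opposite strand, and the counting used strand. Cyp4a10, Cyp4a14 and Acot1 belong to families with near-identical copies, and reads that fit several places were dropped before counting, so their levels are uncertain.

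The promoters of Cpt1a, Ppara and Pdk4 are printed because these genes passed the test for a 24 h rhythm in liver in both arms. The first pair had a fitted peak at night and Pdk4 a fitted peak in the day. Each line gives the 250 bases before the start annotated by RefSeq, read 5′ to 3′ along the gene. These starts lie inside the GENCODE spans given above or at their edge, so the windows of Cpt1a and Ppara fall within the genes as counted. Capitals mark a match to the receptor half-site AGGTCA on either strand.
Cpt1a promoter, chr19:3323051-3323300 on GRCm38.p6, plus strand: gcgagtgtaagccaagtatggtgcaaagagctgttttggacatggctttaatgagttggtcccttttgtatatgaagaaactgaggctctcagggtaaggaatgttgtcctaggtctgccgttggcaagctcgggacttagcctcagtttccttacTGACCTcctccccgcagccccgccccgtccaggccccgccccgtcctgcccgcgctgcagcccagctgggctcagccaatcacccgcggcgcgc
Ppara promoter, chr15:85735526-85735775 on GRCm38.p6, plus strand: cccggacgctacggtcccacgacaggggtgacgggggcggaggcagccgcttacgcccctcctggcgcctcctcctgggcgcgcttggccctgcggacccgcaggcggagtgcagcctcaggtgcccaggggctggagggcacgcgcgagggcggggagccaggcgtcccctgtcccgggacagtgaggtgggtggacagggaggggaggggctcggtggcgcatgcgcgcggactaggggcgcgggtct
Pdk4 promoter, chr6:5496279-5496528 on GRCm38.p6, minus strand: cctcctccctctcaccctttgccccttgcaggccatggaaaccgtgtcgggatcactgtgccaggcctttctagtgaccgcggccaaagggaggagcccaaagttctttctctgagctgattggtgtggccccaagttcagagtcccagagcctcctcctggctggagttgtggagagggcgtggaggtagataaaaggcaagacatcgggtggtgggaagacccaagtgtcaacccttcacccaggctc
RefSeq entries were matched for 5 of the 8 genes, Acot1 and Ehhadh being the others. Besides the half-site, the search covered a direct repeat of it with 1 base between (DR1, at most 2 mismatches), the E-box CACGTG bound by clock proteins and the D-box TTATGTAA, on both strands. The half-site occurred once in the Cpt1a window and in none of the other 4 windows, against 14.0% of 32851 promoter windows of the same length. None of the 5 windows held a DR1, an E-box or a D-box, which were found in 3.24%, 6.02% and 0.819% of all windows. A match is only a run of letters, and the absence of one in 250 bases says nothing about binding elsewhere.

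Depth ranged from 24760295 to 58486579 counts per library. Values are given as CPM, the count scaled to a common library total, and as CPM per kb of exon where genes are compared with each other. In liver, forebrain and cerebellum the sample characteristics gave times 4 h earlier than the titles, a shift not counted as a conflict. In kidney 20 of 24 titles disagreed with the characteristics beyond that shift. All groups and circadian times given here follow the titles. The first CON replicate of the cerebellum at CT8 stood apart, with 3.60% of its counts on antisense genes against 0.831% to 0.979% in the other 23. Changes are log2 fold changes of SD over CON ± standard error (SE) from edgeR's quasi-likelihood test with TMM scaling, with Benjamini-Hochberg adjustment over all genes tested and a threshold of 0.05. The TMM scaling mattered in liver. Without it, using library sizes alone, the median change of all liver genes moved from 0.01 to -0.13, and the split of calls moved from 1857 higher and 1735 lower to 358 higher among 4124, so the changes below are relative to the bulk of genes. The labels do not say whether libraries came from separate animals, although the study's methods call them biological replicates. The p-values measure the spread between these libraries.

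In control mice the genes were expressed mostly in liver and kidney. Ehhadh, the bifunctional enzyme of peroxisomal beta-oxidation, and Ppara had the highest levels in liver per kb of exon, 108 ± 19.0 and 112 ± 26.1 CPM per kb (SD over libraries, n = 12). Cyp4a10, a cytochrome that hydroxylates the far end of fatty acids, stood at 73.3 ± 32.9, Cpt1a, the gatekeeper of mitochondrial fatty acid import, at 55.2 ± 14.5, and Cyp4a14, a second omega-hydroxylase, at 42.9 ± 25.8 CPM per kb. Angptl4, a secreted inhibitor of lipoprotein lipase, reached 9.98 ± 6.19, Pdk4, the kinase that shuts off pyruvate dehydrogenase, 3.43 ± 2.01, and Acot1, a cytosolic acyl-CoA thioesterase, 0.370 ± 0.154 CPM per kb. Neighbours in this order lay within 1 SD of each other's range except Cyp4a14 and Angptl4, and Pdk4 and Acot1. In kidney the order was Ehhadh (256 ± 29.9 CPM per kb), Cyp4a10 (119 ± 17.5), Cpt1a (69.1 ± 13.4), Ppara (50.5 ± 9.76), Cyp4a14 (45.6 ± 10.6), Pdk4 (10.8 ± 5.61), Angptl4 (10.7 ± 2.85) and Acot1 (1.49 ± 0.438). There Ehhadh stood clear of Cyp4a10, Cyp4a10 of Cpt1a, Cyp4a14 of Pdk4 and Angptl4 of Acot1, and the spread of the other neighbours overlapped.

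**Figure D1:**
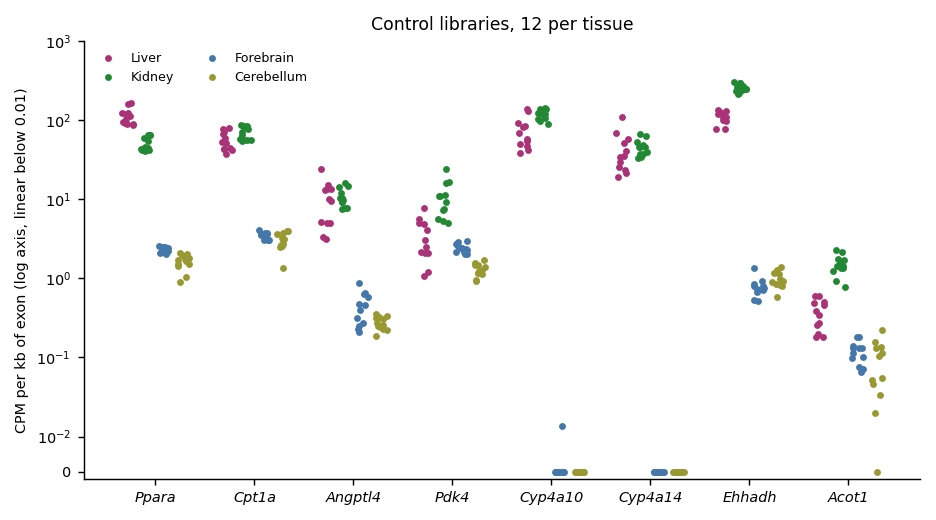
Level of each of the 8 genes in the 48 control libraries, in CPM per kb of exon on a log axis that is linear below 0.01, with 1 point per library and 12 per tissue. Liver and kidney lie far above the brain for every gene but Pdk4 and Acot1, and Cyp4a10 and Cyp4a14 lie at or near 0 in both brain regions.

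Between liver and kidney 4 of the 8 genes differed in control mice, where 68.6% of all genes differed. Ppara was higher in liver (log2 difference 1.66, adjusted p = 4.48e-22), and Pdk4 (-1.15, adjusted p = 9.43e-07), Ehhadh (-0.73, adjusted p = 2.58e-07) and Acot1 (-1.48, adjusted p = 1.38e-06) were higher in kidney. Cpt1a, Angptl4, Cyp4a10 and Cyp4a14 did not pass. All 8 genes were higher in liver than in forebrain (85.9% of all genes differed) and than in cerebellum (87.8%), and higher in kidney than in forebrain (84.9%) and cerebellum (87.1%). The smallest of these differences was that of Pdk4 between liver and forebrain, 0.93 on the log2 scale (adjusted p = 3.41e-05). Cyp4a10 and Cyp4a14 had 0 counts in all 24 cerebellum libraries, which allows up to 0.00444 CPM, and 4 and 1 counts over the 24 forebrain libraries. Forebrain and cerebellum differed for 4 genes, with Ppara, Angptl4, Cpt1a and Pdk4 higher in forebrain by 0.68, 0.87, 0.35 and 1.09 (70.3% of all genes differed). Shares near those of all genes say nothing particular about these genes.

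After sleep deprivation, 4 of the 8 genes rose in liver on average over the day. These were Cpt1a, Angptl4, Cyp4a10 and Ppara, while Cyp4a14, Acot1, Pdk4 and Ehhadh did not pass the test and none fell. Across all 19708 genes tested in liver 18.2% passed, 9.42% as higher and 8.8% as lower under SD. The median change of the 8 genes was 0.30, against 0.01 for all genes. The 8 genes were chosen with earlier results of these data known, so comparisons with all genes here and below are not independent. In a bulk tissue, more RNA per cell and more cells of the expressing type cannot be told apart. Below, times at which both SD libraries lie above or below both CON libraries are named as description only. These orders are in CPM without TMM scaling and rest on 2 libraries per arm. The share of all genes that separate in this way was not counted.

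Ppara itself ranged from 335 to 627 CPM in the 12 CON livers (median 407) and from 314 to 648 CPM in the 12 SD livers (median 413). The arms overlapped almost wholly. In CPM the SD libraries lay above both CON libraries at CT12 and CT20 and below both at CT8 and CT24. With TMM scaling the changes at CT8 and CT24 were near 0, -0.009 ± 0.145 and -0.014 ± 0.145. The average change was 0.21 ± 0.06 (1.16-fold, adjusted p = 0.0219). With library sizes alone it was 0.07 (adjusted p = 0.417), and without CT4, CT12 or CT20 the adjusted p was 0.0591, 0.115 and 0.0815, so the call for the receptor rests on the scaling and on single times.

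Cpt1a showed the firmest rise. Its CPM ranged from 285 to 601 in CON livers (median 394) and from 316 to 811 in SD livers (median 441), and the mean was higher under SD at 6 of 6 times. At CT16 the CON libraries held 509 and 587 CPM and the SD libraries 722 and 791, and at CT20 the CON libraries held 601 and 533 and the SD libraries 811 and 651. At CT24 the values were 390 and 315 in CON against 452 and 428 in SD. Both SD libraries thus exceeded both CON libraries at the 3 times of the subjective night and its end, and the arms overlapped at CT4, CT8 and CT12. The average change was 0.38 ± 0.07 (1.30-fold, adjusted p = 0.000561), and it stayed past the threshold under every alternative tried, being 0.24 (adjusted p = 0.00447) with library sizes alone.

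Angptl4 rose most among the genes that passed. It ranged from 11.1 to 85.4 CPM in CON livers (median 34.1) and from 14.9 to 163 CPM in SD livers (median 52.1). Its means were higher under SD at 5 of 6 times, and at CT8, CT12, CT20 and CT24 both SD libraries exceeded both CON libraries. At CT12 the CON libraries held 18.4 and 33.1 CPM against 79.0 and 52.4 in SD, and at CT24 17.7 and 17.8 against 44.2 and 51.7. At CT4 the mean was lower under SD but the arms overlapped, with 47.2 and 53.3 in CON against 48 and 16.6 in SD. The average change was 0.91 ± 0.22 (1.88-fold, adjusted p = 0.00611).

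The neighbouring cytochrome genes followed a like course. Cyp4a10 ranged from 80.9 to 290 CPM in CON livers (median 133) and from 55.2 to 405 CPM in SD livers (median 261), a change of 0.80 ± 0.21 (1.74-fold, adjusted p = 0.0108). Cyp4a14 ranged from 49.4 to 282 CPM in CON (median 90.0) and from 21.0 to 408 CPM in SD (median 213). Its change of 0.99 ± 0.36 was the largest of the 8 and did not pass in the main test (adjusted p = 0.0588), although it did in DESeq2 (0.0378). Both genes broke their pattern at CT12. There the SD libraries held 110 and 55.2 CPM of Cyp4a10 against 106 and 115 in CON, and 46.5 and 21.0 CPM of Cyp4a14 against 106 and 89.5 in CON, the lowest values of either gene in SD livers. At CT8, 4 h earlier, they held 291 and 342 against 175 and 98.3 for Cyp4a10 and 377 and 274 against 90.5 and 60.1 for Cyp4a14. Leaving out CT12 raised the Cyp4a14 change to 1.39 (adjusted p = 0.00465), and leaving out CT8 took the Cyp4a10 call away (0.69, adjusted p = 0.0563).

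The other 3 genes gave no call. Pdk4 was low in liver, from 3.74 to 26.9 CPM in CON (median 9.61) and from 3.52 to 19.0 CPM in SD (median 7.79), with overlapping arms at 4 of 6 times (change -0.26 ± 0.15, adjusted p = 0.261). Ehhadh ranged from 227 to 397 CPM in CON and from 253 to 318 CPM in SD, a narrower range, with a change of -0.03 ± 0.09 (adjusted p = 0.889). At CT4 its CON libraries held 386 and 377 CPM against 289 and 258 in SD. Acot1 rested on 23 to 92 counts per library, 0.709 to 2.31 CPM in CON and 0.619 to 2.61 CPM in SD, and its change was 0.22 ± 0.21 (adjusted p = 0.538).

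**Figure D2:**
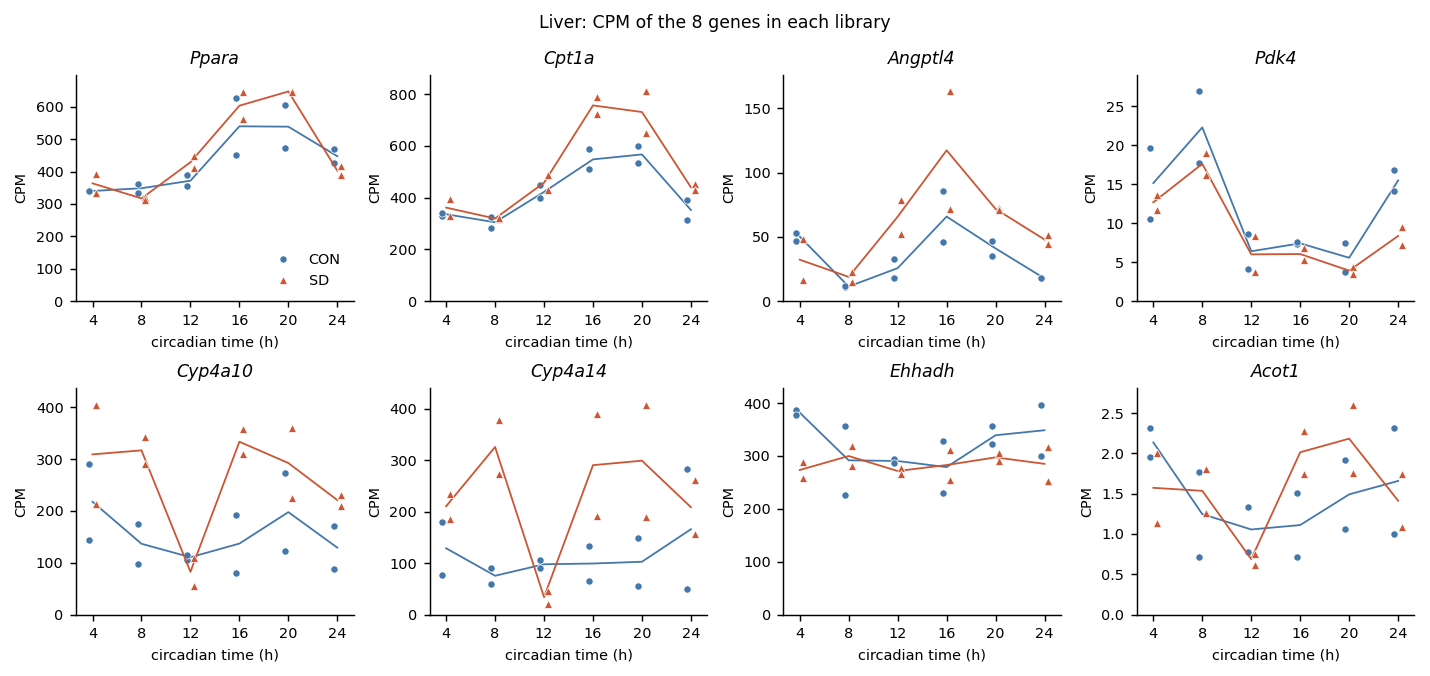
CPM of the 8 genes in the 24 liver libraries against circadian time in hours, with circles for CON, triangles for SD and lines through the mean of the 2 libraries at each time. Cpt1a separates most at CT16 and CT20, and Cyp4a10 and Cyp4a14 dip at CT12 under SD. The SD mean of Pdk4 in CPM lies below the CON mean at every time, but libraries overlap at most times. With TMM scaling the Pdk4 change at CT12 was 0.09 ± 0.40.

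A test of all 6 times together called Cpt1a (adjusted p = 0.0473) and Angptl4 (adjusted p = 0.0388) in liver, 2 of 8 genes where 3.56% of all genes passed. Both calls lie close to the threshold. Leaving out 1 library in turn lost the Cpt1a call in 20 of 24 fits and the Angptl4 call in 15 of 24, with adjusted p-values from 0.0103 to 0.114 for Cpt1a and from 0.00669 to 0.0933 for Angptl4. No single time gave a call for any of the 8 genes, with 0.111% of all gene and time combinations called. With 2 libraries per arm the largest single-time differences were those of Cyp4a14 at CT8, CT16 and CT20. They were 2.24 ± 0.68, 1.75 ± 0.67 and 1.64 ± 0.67 (adjusted p = 0.150, 0.262 and 0.553). Angptl4 followed with 1.58 ± 0.46 at CT24 and 1.54 ± 0.46 at CT12 (adjusted p = 0.126 and 0.579). At CT16 5 of the 8 had an unadjusted p under 0.05, as had 2726 of all 19708 genes. Without the first SD replicate at CT16, Cpt1a (adjusted p = 0.00903) and Angptl4 (adjusted p = 0.0295) passed at that time.

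Daily rhythms of the genes were tested with cosine and sine terms of a 24 h period in the 12 libraries of each arm. SD mice were sampled over the day after deprivation, so in that arm time of day and time since deprivation cannot be told apart. The same holds for changes at single times and for the difference in rhythm between the arms. In CON liver Ppara, Cpt1a and Pdk4 were rhythmic (adjusted p = 0.0112, 0.0108 and 0.0158), 3 of 8 where 9.13% of all genes passed. Ppara peaked at CT 19.8 and Cpt1a at CT 18.3, and their fitted peaks exceeded their troughs 1.63-fold and 1.76-fold. Pdk4 peaked at CT 4.75, in the subjective day, with a 4.00-fold range. In SD liver the same 3 genes passed together with Angptl4, where 12.9% of all genes passed, with peaks at CT 18.7 for Ppara, CT 18.4 for Cpt1a, CT 17.6 for Angptl4 and CT 5.99 for Pdk4. The fitted range of Angptl4 was 1.97-fold in CON (adjusted p = 0.515) and 4.11-fold in SD (adjusted p = 0.0180), and that of Cpt1a was 1.76-fold and 2.30-fold. Leaving out the second SD replicate at CT4 or CT16 or the first at CT8 took the Angptl4 rhythm past the threshold, to 0.0528, 0.0743 and 0.0503.

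A direct test of the difference in rhythm between the arms called none of the 8 genes in liver or kidney, with 0.0% of all genes called in either tissue, 722 of 19708 and 874 of 21528 genes at an unadjusted p under 0.05, and 0 and 2 of the 8 genes among them (Pdk4 and Angptl4 in kidney). The gain of a rhythm by Angptl4 in SD liver was therefore not shown as a difference between the arms. In CON kidney Cpt1a was rhythmic with a peak at CT 16.7 (1.58-fold, adjusted p = 0.00346), 1 of 8 where 4.1% of all genes passed, and Ppara came close (peak at CT 18.3, adjusted p = 0.0505). In SD kidney Ppara was rhythmic with a peak at CT 19.5 (1.78-fold, adjusted p = 0.00931), 1 of 8 where 1.94% passed, and Cpt1a came close (peak at CT 17.0, adjusted p = 0.0572). The fitted peaks of Ppara and Cpt1a lay between CT 16.7 and CT 19.8 in both tissues and both arms, whether or not the rhythm passed.

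In kidney none of the 8 genes passed the test averaged over time, where 2.3% of all genes passed and 0.181% passed as higher. All 8 changes were positive, from 0.03 to 0.52, with a median of 0.17 against 0.01 for all genes, and 2 of the 8 had an unadjusted p under 0.05, as had 2812 of all 21528 genes. These were Cyp4a14 and Cyp4a10. Cyp4a14 ranged from 86.9 to 172 CPM in CON kidneys (median 118) and from 103 to 227 CPM in SD kidneys (median 162), and both SD libraries exceeded both CON libraries at 4 of 6 times. Its change was 0.39 ± 0.12 (adjusted p = 0.0902), and it passed without the first CON replicate at CT12 (0.00670), the second CON replicate at CT24 (0.0417) or the first SD replicate at CT12 (0.0301). Cyp4a10 ranged from 185 to 296 CPM in CON (median 251) and from 245 to 354 CPM in SD (median 297), a change of 0.25 ± 0.08 (adjusted p = 0.123), which reached 0.0372 without CT20 and 0.04999 in DESeq2. As in liver, neither gene had a higher mean under SD at CT12, where the kidneys held 245 and 274 CPM of Cyp4a10 in SD against 277 and 255 in CON, and at CT20 both SD values of Cyp4a10 lay below both CON values.

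Pdk4 ranged from 17.5 to 84.0 CPM in CON kidneys (median 35.3) and from 23.5 to 85.8 CPM in SD kidneys (median 44.4), with a change of 0.52 ± 0.26 (adjusted p = 0.403). Replicates differed widely under SD, with 83.6 and 23.9 CPM at CT20 and 82.5 and 24.1 CPM at CT4. Both SD libraries exceeded both CON libraries at CT12 and CT20, and the arms overlapped at the other 4 times. Cpt1a ranged from 416 to 664 CPM in CON and from 389 to 706 CPM in SD, a change of 0.04 ± 0.05 (adjusted p = 0.788), and Ppara changed by 0.03 ± 0.06 (adjusted p = 0.888). Angptl4 changed by 0.18 ± 0.15, Ehhadh by 0.14 ± 0.07 and Acot1 by 0.17 ± 0.13. At CT16 Acot1 stood at 6.91 and 8.11 CPM in SD against 2.995 and 3.63 in CON, a difference of 1.15 ± 0.21 (adjusted p = 0.229).

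The test of all 6 times together called none of the 8 genes in kidney, where 0.725% of all genes passed. At an unadjusted p under 0.05 there were 4 of the 8 and 2277 of all 21528 genes. No single time gave a call, with 0.0666% of all gene and time combinations called. Adipocyte markers, which mark fat around the organ, varied strongly among kidneys. Their summed level ran from 9.11 to 240 CPM in CON and from 1.996 to 342 CPM in SD, 0 of 5 markers passed the test, and their part in the spread of Pdk4 and Angptl4 was not tested.

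**Figure D3:**
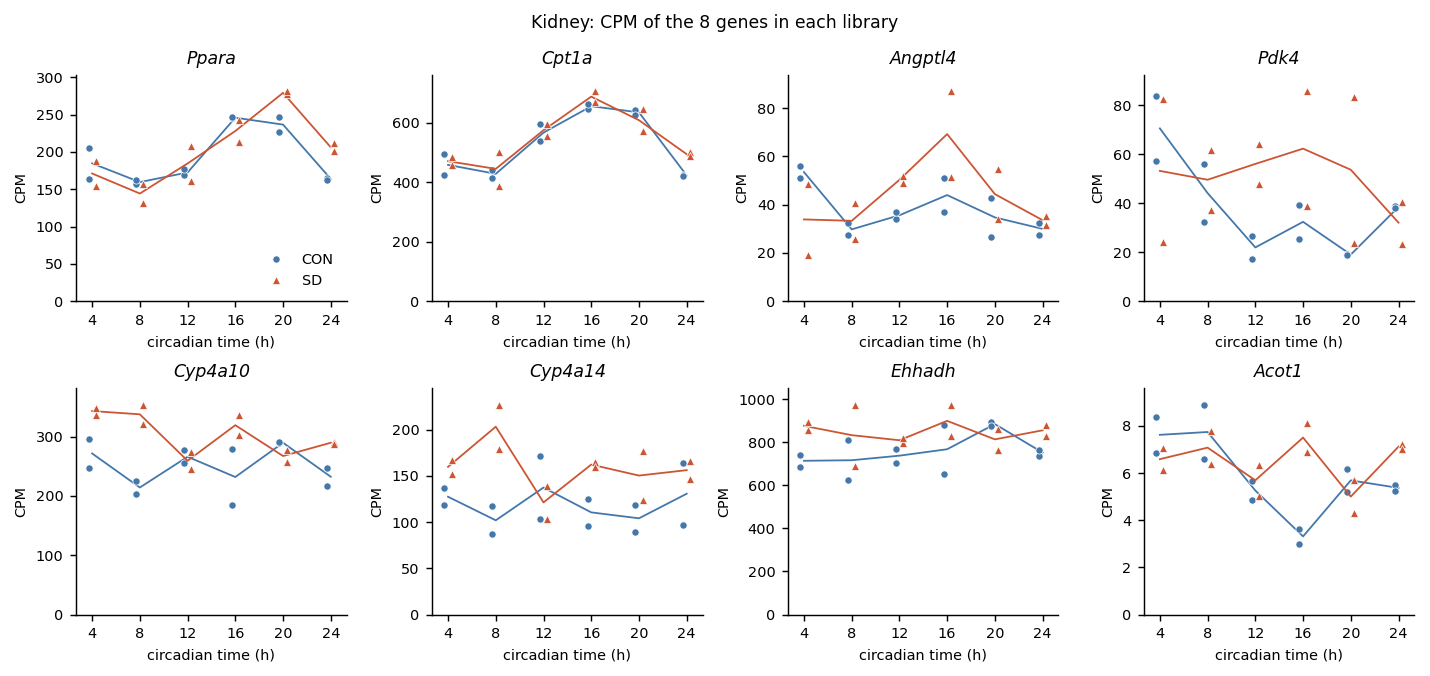
CPM of the 8 genes in the 24 kidney libraries against circadian time in hours, drawn as for liver with circles for CON, triangles for SD and lines through the mean of the 2 libraries. Cyp4a14 lies above CON at most times but not at CT12, the means of Cpt1a and Ppara are highest at CT16 or CT20 in both arms, and Pdk4 and Angptl4 scatter between SD replicates.

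Liver and kidney were then compared directly by the difference of their changes. Of the 8 genes, Cpt1a passed, with a change 0.33 ± 0.09 higher in liver than in kidney (adjusted p = 0.0176), where 6.49% of all genes passed. The call was lost with library sizes alone (0.18, adjusted p = 0.0891) and without CT16 (0.30, adjusted p = 0.0507) or CT20 (0.29, adjusted p = 0.0752). For Angptl4 the difference was 0.73 ± 0.28 (adjusted p = 0.110, and 0.00966 with a replicate block across tissues), for Cyp4a10 0.55 ± 0.24 (adjusted p = 0.165) and for Pdk4 -0.79 ± 0.32 (adjusted p = 0.126). With library sizes alone Pdk4 passed (-0.94, adjusted p = 0.0480), as did Ehhadh (-0.32, adjusted p = 0.0373). Ppara (0.17 ± 0.09), Cyp4a14 (0.60 ± 0.39), Ehhadh (-0.17 ± 0.12) and Acot1 (0.05 ± 0.25) did not pass in the main test.

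**Figure D4:**
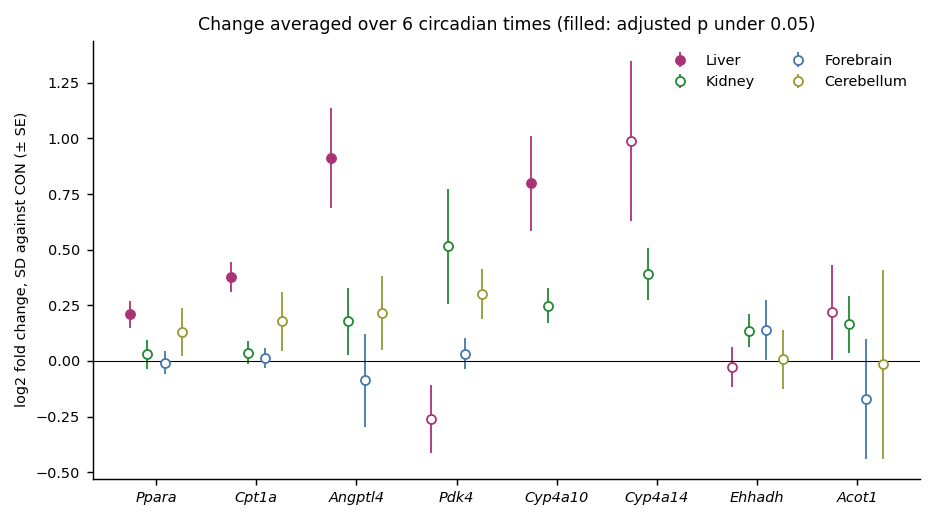
Log2 fold change of SD over CON averaged over the 6 circadian times, with bars of 1 SE, for each of the 8 genes in liver, kidney, forebrain and cerebellum, and filled points for an adjusted p under 0.05. The 4 filled points are Ppara, Cpt1a, Angptl4 and Cyp4a10 in liver, Pdk4 lies below 0 in liver and above it in kidney, and Cyp4a10 and Cyp4a14 have no brain values.

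In the brain 6 of the 8 genes were abundant enough to test, and none passed in either region. In forebrain 0.0303% of all genes passed, and the 6 changes ran from -0.17 to 0.14 with no unadjusted p under 0.05. In cerebellum 0.0% passed, with 757 of 22218 genes at an unadjusted p under 0.05, and the 6 changes ran from -0.02 to 0.30. Pdk4 had the largest of them (0.30 ± 0.11, adjusted p = 0.907), from 3.19 to 5.88 CPM in CON and from 3.85 to 8.66 CPM in SD. Cpt1a had the highest level of the 8 per kb of exon in control forebrain, 3.42 ± 0.330 CPM per kb, and its CPM did not differ by the test, with 26.1 ± 2.52 CPM in CON and 26.4 ± 1.62 CPM in SD forebrain (SD over libraries, n = 12). In cerebellum its lowest value, 10.2 CPM, was that of the library that stood apart, whose partner held 28.1 CPM. Acot1 rested on at most 30 counts in any brain library, so small changes in it were not detectable at this depth.

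The rest of the pathway was read from 11 gene lists that leave out the 8 genes. Of 124 listed genes 115 were tested in liver, and 48 rose and 5 fell after sleep deprivation, against the 9.42% and 8.8% of all genes given above. The lists were drawn up with earlier results of these data known. The plot of the lists in liver shows every gene tested.

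Mitochondrial beta-oxidation, which follows the step controlled by Cpt1a, held the largest share of calls. Of 15 genes 14 rose, by 0.23 to 0.37, and 12 rose with library sizes alone. The largest rises were those of Etfdh, which passes electrons to the respiratory chain (202 ± 25.2 CPM in CON, 238 ± 27.5 in SD, 0.37 ± 0.07, adjusted p = 0.000541), and of the enoyl-CoA isomerases Eci1 (0.36 ± 0.06, adjusted p = 0.000284) and Eci2 (0.34 ± 0.07, adjusted p = 0.00162). Etfb did not pass and had under 1 CPM. The median of the list was 0.29, against 0.01 for all genes.

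Of the carnitine shuttle 3 of 6 genes tested rose. Cpt2, the inner membrane partner of Cpt1a, rose by 0.37 ± 0.06 (adjusted p = 0.000133). Slc25a20, the carrier between Cpt1a and Cpt2, rose by 0.28 ± 0.07 (adjusted p = 0.01004). Crot, the peroxisomal carnitine octanoyltransferase, rose by 0.32 ± 0.10 (adjusted p = 0.0224). The median of the list was 0.24, and 1 of the 6 passed with library sizes alone.

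Among genes of ketone body metabolism, Acat1, which supplies acetoacetyl-CoA, rose by 0.35 ± 0.05 (adjusted p = 8.38e-05), and Bdh1, which interconverts acetoacetate and beta-hydroxybutyrate, rose by 0.25 ± 0.06 (adjusted p = 0.00326). Oxct1, which lets cells use ketone bodies and which hepatocytes hardly express, fell by 0.44 ± 0.07, from 13.8 ± 2.04 to 9.27 ± 1.01 CPM (adjusted p = 0.000182).

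Beside Ehhadh, 7 of 13 peroxisomal genes rose, led by the thiolase and carrier gene Scp2 (0.37 ± 0.07, adjusted p = 0.000541), Hsd17b4 (0.29 ± 0.06) and Decr2 (0.29 ± 0.06), and 3 rose with library sizes alone. Beside the cytochromes, 5 of 10 genes of omega-oxidation rose, led by the relative Cyp4a32 (0.44 ± 0.14, adjusted p = 0.0284), whose reads can fall on near-identical copies, and by Por, which feeds electrons to the cytochromes (0.44 ± 0.12, adjusted p = 0.0127). Cyp4f15 rose by 0.33 ± 0.08. None of the 10 passed with library sizes alone. Beside Acot1, none of 8 thioesterases passed.

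Beside Pdk4, the pyruvate dehydrogenase list had 4 genes that rose and 1 that fell of 9, among them the kinase Pdk2 (0.24 ± 0.08, adjusted p = 0.0344), the phosphatase Pdp2 (0.33 ± 0.09, adjusted p = 0.00984), which acts against the kinases, and the kinase Pdk3, which fell by 0.34 ± 0.11 at 2.52 ± 0.376 CPM in CON (adjusted p = 0.0386). The list lost calls easily. Without CT12 or CT20 1 gene rose, with library sizes alone 0 rose and 1 fell, and Pdk3 did not pass with the replicate block (0.0537), without a filter on low counts (0.0968) or without CT4, CT8, CT20 or CT24 (0.0660 to 0.135). Beside Angptl4, 2 of 8 genes rose and 1 fell. Lipc, the hepatic lipase, rose by 0.32 ± 0.06 (adjusted p = 0.000871), Lmf1, which matures lipases, rose by 0.17 ± 0.04 (adjusted p = 0.0114), and Lpl, the enzyme that Angptl4 blocks, fell by 0.21 ± 0.07, from 113 ± 32.7 to 90.7 ± 29.5 CPM (adjusted p = 0.0450). The Lpl call was lost with the replicate block (0.0504) and without CT4, CT8, CT20 or CT24 (0.0652 to 0.236). Beside Ppara, its partners Rxra (0.18 ± 0.05, adjusted p = 0.0131) and Rxrb (0.17 ± 0.05, adjusted p = 0.0322) rose among 12 receptors and cofactors, and with library sizes alone 0 of the 12 rose and 3 fell.

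Of 15 genes for fatty acid uptake and activation 6 rose and 2 fell. Slc27a2, a very long chain acyl-CoA synthetase and transporter, rose from 1025 ± 169 to 1401 ± 301 CPM (0.58 ± 0.07, adjusted p = 8.22e-06), Acsm3 rose by 0.49 ± 0.08 and Acsl1, the main acyl-CoA synthetase of liver, by 0.41 ± 0.08 (adjusted p = 0.000345 and 0.00145). The pair that fell were Cd36, a fatty acid importer, and Slc27a1. Under library sizes alone 4 of the 15 rose and 4 fell. Of 10 lipid droplet genes Plin5 (0.38 ± 0.07) and Mgll (0.31 ± 0.06) rose. Of 9 other targets tested Retsat, a retinol saturase (0.70 ± 0.11, adjusted p = 0.000146), and Cyp8b1, the bile acid 12-alpha-hydroxylase (0.67 ± 0.18, adjusted p = 0.0121), rose with Creb3l3, a transcription factor of the fasted liver (0.31 ± 0.06, adjusted p = 0.00127), and the uncoupling protein gene Ucp2 fell by 0.38 ± 0.08 (adjusted p = 0.00266).

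**Figure D5:**
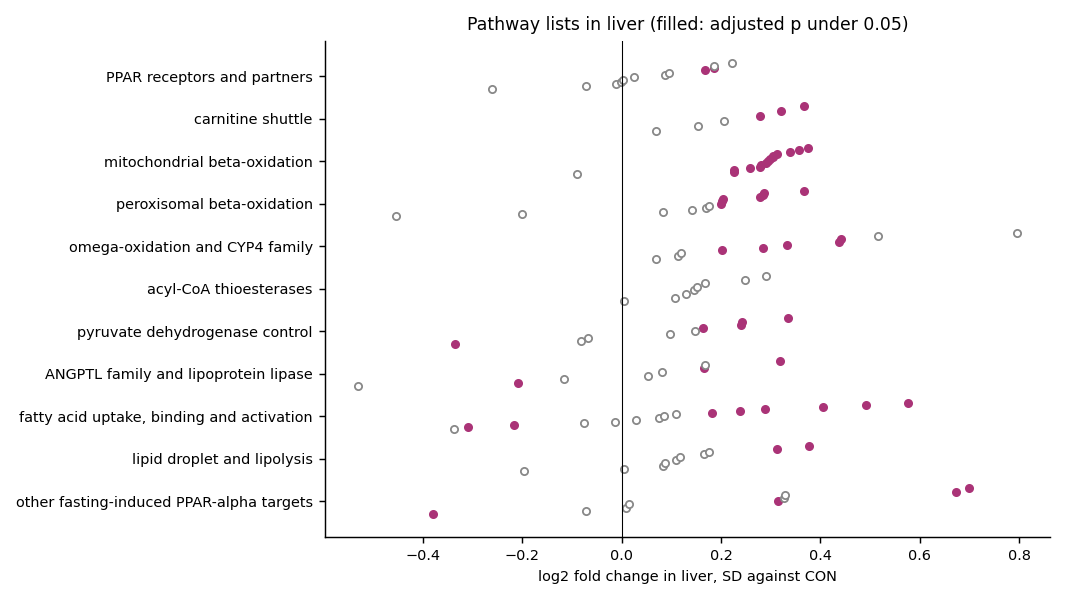
Log2 fold change of SD over CON in liver for each gene tested in 11 pathway lists that leave out the 8 genes, 1 point per gene, filled for an adjusted p under 0.05. In the list of mitochondrial beta-oxidation 14 of 15 points are filled and lie to the right of 0, and the thioesterases have none filled.

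Some cell type markers also changed in liver, while 0 of 4 endothelial and 0 of 3 cholangiocyte markers passed. Of the hepatocyte markers 3 of 5 tested rose, Alb by 0.24, Apoa1 by 0.28 and Cps1 by 0.33, changes of the same order as those of the oxidation genes. Ttr (0.11) and Tat (0.21) did not pass. The summed level of the hepatocyte markers overlapped between the arms, from 68210 to 95447 CPM in CON and from 70342 to 94305 CPM in SD. Of 5 stellate cell and fibroblast markers Lrat (0.38) and Dcn (0.15) rose, while Reln (0.14), Col1a1 (-0.07) and Col3a1 (-0.13) did not pass, and the median of their summed level was 717 CPM in CON and 627 CPM in SD. Macrophage markers fell in 4 of 4 tested (Adgre1 -0.62, Cd5l -0.61, Csf1r -0.44, Clec4f -0.30), and their summed level ran from 732 to 1373 CPM in CON and from 513 to 827 CPM in SD. T and B cell markers fell in 3 of 3, with sums of 65.0 to 128 CPM in CON and 30.6 to 62.3 CPM in SD. Their part in the rise of Cpt1a, Angptl4 and the oxidation genes was not tested. Markers of the proximal tubule summed to at most 6.62 CPM in any liver library. In kidney they summed to at least 20256 CPM in CON and 0 of 6 passed. There 2 of 3 macrophage markers tested fell, Adgre1 (-0.42) and Cd5l (-1.85, at a mean of 0.271 CPM in CON), as did 1 of 3 T and B cell markers, Ptprc (-0.56), and 1 of 3 endothelial markers, Kdr (-0.13).

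In kidney 0 of 113 genes tested in the 11 lists passed in edgeR, 10 had an unadjusted p under 0.05, and DESeq2 called 0.

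Across the 24 liver libraries the genes fell into groups by their course. The points share the time of day and the arm, so the correlations describe the libraries only. Cpt1a followed Ppara (r = 0.87) and Angptl4 (r = 0.82), Pdk4 ran against Cpt1a (r = -0.71) and Ppara (r = -0.62), and Cyp4a10 followed Cyp4a14 (r = 0.90) and Acot1 (r = 0.82). Between these groups correlations were weaker, from 0.08 for Pdk4 with Cyp4a14 to 0.31 for Cpt1a with Cyp4a10. Ehhadh had r = 0.64 with Acot1, 0.44 with Cyp4a10 and 0.38 with Cyp4a14. With the genes of the first group its r ran from -0.05 (Ppara) to 0.25 (Pdk4). Of the 19707 other genes tested in liver, the one most like both Cpt1a (Pearson r = 0.95, Spearman rho = 0.92) and Angptl4 (0.85 and 0.86) was Eci2. The pseudogene Cyp4b1-ps2 on chromosome 4 was most like Cyp4a10 (0.94 and 0.96), and Cyp4a10 was most like Cyp4a14 (0.90 and 0.86). Tbc1d16 was most like Ppara (0.89 and 0.89), Mical2 most like Pdk4 (0.93 and 0.92), Acaa1b, a peroxisomal thiolase, most like Ehhadh (0.82 and 0.77) and Ascc3 most like Acot1 (0.84 and 0.76).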

How the data were processed

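Total RNA, depleted of ribosomal RNA, had been sequenced strand-specifically in 96 libraries. The authors trimmed reads with Trim Galore, aligned them to GRCm38 with HISAT2, kept alignments of mapping quality 60 and counted them per gene with featureCounts. The deposited values are these raw counts, 24760295 to 58486579 per library. Groups and times follow the sample titles. Titles and characteristics conflicted for 20 kidney libraries, and in the other tissues the characteristics gave times 4 h earlier.

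Tests used edgeR 4.0.16 (quasi-likelihood, TMM factors, filterByExpr, Benjamini-Hochberg over all genes tested) in R 4.3.3. Each tissue was fitted with time as a factor for the average change, with a mean per group for joint and single-time tests, and with cosine and sine terms for rhythms. Liver and kidney shared a fit for the difference of their changes, and the 48 control libraries a fit for levels. The SE is the log2 fold change divided by the root of F. The fits were tested on simulated data. Alternatives were DESeq2 1.42.0, RLE scaling, library sizes alone, no filter on low counts, a replicate block, each time left out and each library left out. Deviations of same-numbered CON and SD libraries did not correlate above 0.1 in every pair, so no block was used. Shared fits treated libraries as independent, and a block across tissues was added after seeing the data.

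The 8 genes and the lists were chosen with earlier results of these data known. Named besides the 8 are up to 3 called genes per list and tissue with the largest change, and the gene most like each of the 8. Bdh1, Creb3l3, Cd36, Slc27a1 and Etfb were named after their values were seen. Some genes of ketone body metabolism are not reported here.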

Additional observations from a re-analysis of the deposited data

Results flagged for a closer look

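The change of Cpt1a under sleep deprivation differed between liver and kidney in the test of the difference itself, by 0.33 on the log2 scale (edgeR quasi-likelihood test, adjusted p = 0.0176), with 0.38 in liver and 0.04 in kidney. The SD mean was higher at 6 of 6 times in liver and at 5 of 6 times in kidney. The call was lost with library sizes alone and without CT16 or CT20. Kidney groups follow the titles, which conflicted with the characteristics for 20 libraries, and grouping by the characteristics was not tested.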

How the results depend on the processing

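Of the 8 genes, Cpt1a and Angptl4 stayed past the threshold on average in liver under every alternative, with changes of 0.24 to 0.41 and 0.76 to 1.19 outside the single left-out libraries. The counts of the 8 genes called moved as follows. Without a filter on low counts they were 3 for the average in kidney, 7 and 5 for all times together in kidney and liver, 15 and 19 for single times, 1 and 1 for the rhythm difference, 4 and 3 for rhythms in CON and SD kidney, 8 for rhythms in CON liver and 5 for liver against kidney. In DESeq2 they were 1 for the average in kidney, 2 and 4 for all times together and 2 and 1 for single times in kidney and liver. With library sizes alone they were 1 for all times together in liver, 2 for rhythms in SD kidney and 2 for liver against kidney. Without CT12 or CT20 the kidney average called 1 gene. The count for liver against kidney was 0 without CT16 or CT20 and 2 without CT4. The cause was not tested.

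The replicate block gave 1 call for all times together and 1 for single times in kidney and 5 for the average in liver, where Cyp4a14 joined (adjusted p = 0.0480). The deviations of same-numbered CON and SD libraries correlated from -0.07 to 0.13 in liver, -0.05 to 0.28 in kidney, -0.24 to 0.40 in forebrain and -0.32 to 0.12 in cerebellum, so not every pair was above 0.1. Liver and kidney of the same number correlated from -0.04 to 0.33, above 0 in 11 of 12 pairs. A replicate block across tissues, chosen after seeing the data, gave 2 calls for liver against kidney, Cpt1a (0.34, adjusted p = 0.0140) and Angptl4 (0.70, 0.00966), and 41 for control levels.

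Leaving out 1 library at a time gave 4 to 5 calls for the average in liver, 0 to 1 in kidney, 0 to 3 and 0 to 1 for all times together in liver and kidney, 0 to 2 for single times in liver, 1 to 2 for rhythms in CON and SD kidney, 3 to 4 for rhythms in SD liver, 1 to 2 for liver against kidney and 40 to 41 for control levels. Cyp4a14 passed in liver without the second CON replicate at CT4 or CT24, the first CON replicate at CT12, either SD replicate at CT12 or the first SD replicate at CT24 (adjusted p = 0.0143 to 0.0498). Cyp4a10 passed for all times together in kidney without either CON replicate at CT16 (0.0413 and 0.0106). Uncalled changes near 0 turned sign. Acot1 in kidney was -0.023 without CT16, and its liver minus kidney difference was -0.11 with library sizes alone, -0.12 without CT20, -0.063 without CT8 and -0.045 to 0.14 without single libraries. Ehhadh in liver was 0.043 without CT4 and -0.076 to 0.0073 without single libraries. Ppara in kidney was -0.0038 without CT20 and -0.027 without CT24. Depth limits Acot1 in liver and brain and Cyp4a10 and Cyp4a14 in brain.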
